A study of Mus musculus with 12 samples.

Results

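The 8 genes of vitamin A absorption and retinoid metabolism were followed in the proximal ileal epithelium of mice given TCDD. They were Scarb1, Bco1, Rbp2, Lrat, Dgat2, Rdh7, Aldh1a1 and Isx, which are 8 of the 46078 genes in the count files. The genes were chosen by symbol, and symbols were matched to the deposited Ensembl identifiers through the GENCODE M21 annotation. All 8 passed the filter on low counts that left 15823 genes for testing. TCDD is a chlorinated, long-lived dioxin that activates the aryl hydrocarbon receptor (AhR).

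RNA sequencing was done on epithelial scrapings of male C57BL/6 mice, with 12 libraries in 4 groups of 3. Vehicle mice received sesame oil by gavage, and the other groups received 3, 10 or 30 µg/kg TCDD in sesame oil, at an interval of 4 days and 7 times in all. Treatment began at 28 days of age and tissue was taken at 56 days. Collection is described as falling early in the light phase, with no time given for single libraries. All mice were of 1 strain and sex and ate a standard rodent diet, no mutant was included, and a scraping holds every cell type of the mucosa.

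Dietary vitamin A reaches the enterocyte as retinyl esters, which are hydrolysed to retinol, and as carotenoids, which are taken up by scavenger receptors and cleaved to retinal. Inside the cell, retinal is reduced to retinol, retinol is bound, esterified with long-chain fatty acids and exported in chylomicrons. A smaller share is oxidised to retinoic acid, the ligand of the retinoic acid receptors, which in the intestine induces Isx, a repressor of Scarb1 and Bco1.

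Promoter sequences are shown for Bco1 and Rbp2, the members with the largest fitted increases at 30 µg/kg, although neither was called by the edgeR test described below. The longest stretch of letters shared by both windows is marked, and other pairs of windows were not compared. The sequences are RefSeq's for GRCm38.p6 and hold the 250 bases before the annotated start, read 5′ to 3′ on the strand of the gene. The windows are chr8:117095615-117095864 for Bco1 and chr9:98490287-98490536 for Rbp2, both on the plus strand. For Rbp2, GENCODE M21 also has a start further upstream. Capitals mark, in Bco1, the direct repeat described next, which holds the shared stretch, and in Rbp2 the dioxin response element core, read on the other strand as CACGC, and then the shared stretch.
Bco1: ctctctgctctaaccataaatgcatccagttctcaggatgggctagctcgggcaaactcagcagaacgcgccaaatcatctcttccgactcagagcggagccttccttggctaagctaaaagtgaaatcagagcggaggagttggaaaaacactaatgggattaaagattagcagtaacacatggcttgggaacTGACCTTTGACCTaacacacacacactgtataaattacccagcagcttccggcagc
Rbp2: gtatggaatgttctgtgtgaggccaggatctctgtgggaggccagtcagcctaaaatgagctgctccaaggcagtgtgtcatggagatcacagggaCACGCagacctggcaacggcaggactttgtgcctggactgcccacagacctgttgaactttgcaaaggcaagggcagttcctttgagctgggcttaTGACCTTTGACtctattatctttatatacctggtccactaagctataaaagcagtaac

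The longest stretch that both windows held was TGACCTTTGAC, 11 bases at positions -56 to -46 of Bco1 and -58 to -48 of Rbp2, counted back from the annotated start. In Bco1 it lay inside a perfect match, on the reverse strand, to DR1, a direct repeat of 2 copies of AGGTCA with 1 base between them, the kind of element that nuclear receptors such as HNF4 and the retinoid X receptors bind. The full repeat was found on either strand in 0.0335% of 32851 promoter windows of the same length. The shared stretch, which these windows themselves defined, was found in 0.0304%. The dioxin response element core GCGTG was found in Rbp2 and Lrat, on the reverse strand at -154 to -150 and -175 to -171, and in 28.2% of all windows. None of the 8 windows found for 6 of the members (Rdh7 and Aldh1a1 have 2 each) held the D-box TTATGTAA or the E-box CACGTG, which 0.819% and 6.02% of all windows held. These letter matches describe the windows only and say nothing of binding.

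The libraries held between 11695887 and 22180274 counts assigned to genes. At 30 µg/kg, reads outside genes made up between 25.0% and 25.4% of the total counted, against 28.0% to 30.1% in the other 9 libraries. Entries with several alignments made up between 36.2% and 38.8%, against 31.4% to 34.6%. Unaligned reads are not part of this total. CPM are counts scaled to library size with edgeR's TMM factors. Cyp1a1, the classical AhR target, averaged 23.0 CPM in vehicle and 2982 CPM at 30 µg/kg, which is 7.01 (SE 0.57) on the log2 scale. Its Benjamini-Hochberg (BH) adjusted p was 2.31e-05 by the quasi-likelihood test of edgeR. Cyp1a1 was between 872 and 1333 CPM at 10 µg/kg, while the 3 µg/kg libraries had 141, 68.8 and 22.2 CPM and the last of these lay within the vehicle range of 19.0 to 27.5. At 3 µg/kg it was not called by edgeR or limma-voom and was called by DESeq2. Enterocyte markers summed to between 36218 and 60436 CPM, but they do not tell segments of the small intestine apart. Fabp6, the bile acid binding protein of the distal ileum, was at 38.3, 32.5 and 22.9 CPM in the 3 µg/kg libraries and at no more than 0.306 CPM in the other 9. Slc10a2, the ileal bile acid transporter, had 16.5, 9.11 and 5.46 CPM there and no more than 2.68 in the other 9. Of 6 tested markers of the distal small intestine, 1 was called higher at 3 µg/kg by edgeR, where 0.228% of all genes were called. At 3 µg/kg, segment of the intestine and dose therefore cannot be told apart. At 10 µg/kg edgeR called 2 of 6 tested colon markers higher, and 0 of 6 distal and 0 of 8 proximal markers, beside 0.613% of all genes. At 30 µg/kg 1 of 6 distal and 1 of 6 colon markers were called higher, beside 3.08% of all genes. The colon list holds Ang4, which is also counted among the Paneth cell markers below. Ang4 had 34.6, 46.3 and 28.3 CPM in vehicle and 159, 195 and 194 at 30 µg/kg. There 1 of 8 proximal markers was called lower, beside 0.891%. Whether the segment differed at these 2 doses was not tested.

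A second difference between libraries ran across all groups. A clock score was taken as the mean z value of 9 genes of the Dbp phase of the circadian clock minus that of 5 genes of the Arntl phase. It was positive, between 1.39 and 2.01, in 6 libraries, namely vehicle replicates 2 and 3, 3 µg/kg replicate 1, 10 µg/kg replicate 1, and 30 µg/kg replicates 1 and 2. The other 6 libraries had scores between -2.29 and -0.48. Dbp ran from 0.98 to 121 CPM and Arntl from 5.51 to 64.5 CPM, and a single collection phase for all libraries was not seen in these genes. Whether collection times differed was not tested. Every group held both kinds, so member values are also given by the sign of the score.

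Levels were compared between members on the RPKM scale, which divides CPM by the length of all annotated exons. In vehicle, Rbp2 stood highest at 748 RPKM ± 103 (SD, n = 3), followed by Dgat2 at 120 ± 53.9 and Isx at 41.3 ± 11.5. Aldh1a1 had 20.8 ± 1.76, Rdh7 17.8 ± 3.12, Bco1 7.81 ± 6.34, Lrat 5.62 ± 0.595 and Scarb1 0.494 ± 0.0619. Neighbours in this order overlapped in their vehicle libraries for Aldh1a1 and Rdh7, Rdh7 and Bco1, and Bco1 and Lrat, and not for the other pairs. At 30 µg/kg the order changed for Bco1, whose mean of 41.3 RPKM ± 31.1 lay between those of Isx, 51.8 ± 6.47, and Aldh1a1, 13.8 ± 0.99. The exon length used for Scarb1, 8500 nt, joins all its annotated isoforms, which lowers its RPKM.

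**Figure D1:**
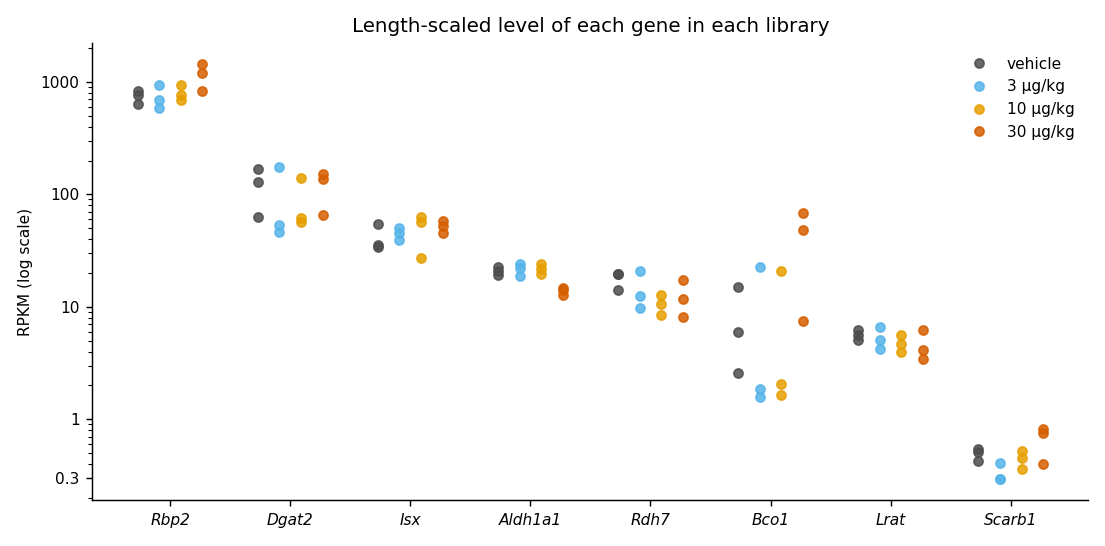
Length-scaled level (RPKM, log axis) of the 8 genes in each of the 12 libraries, ordered by the vehicle mean, 1 point per library and 1 colour per dose. Rbp2 lies above all others with a vehicle mean of 748 RPKM, Scarb1 below all others at 0.494, and Bco1 has the widest spread.

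Each dose was compared with vehicle to ask which members responded. Calls required an adjusted p under 0.05 over all 15823 genes and a fitted change of at least 1.5-fold. At the lower doses, 3 and 10 µg/kg, 0 of 8 members were called by edgeR, DESeq2 or limma-voom, where edgeR called 0.228% and 0.613% of all genes. An unadjusted p under 0.05 was found for 0 members at 3 µg/kg and for 1, Rdh7, at 10 µg/kg. At 30 µg/kg 1 member, Aldh1a1, was called and was lower, where 3.97% of all genes were called, 3.08% higher and 0.891% lower. The test for any difference among the 4 groups also called only Aldh1a1 among the members, with a background of 6.78%. A slope over the dose rank called 0 members, with a background of 3.29%, by edgeR, DESeq2 and limma-voom, and 4 members, Rbp2, Bco1, Rdh7 and Aldh1a1, had an unadjusted p under 0.05 for it. The median log2 change of the 8 members was -0.060, -0.041 and 0.15 at 3, 10 and 30 µg/kg, beside 0.0017, -0.0096 and -0.016 over all genes tested.

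**Figure D2:**
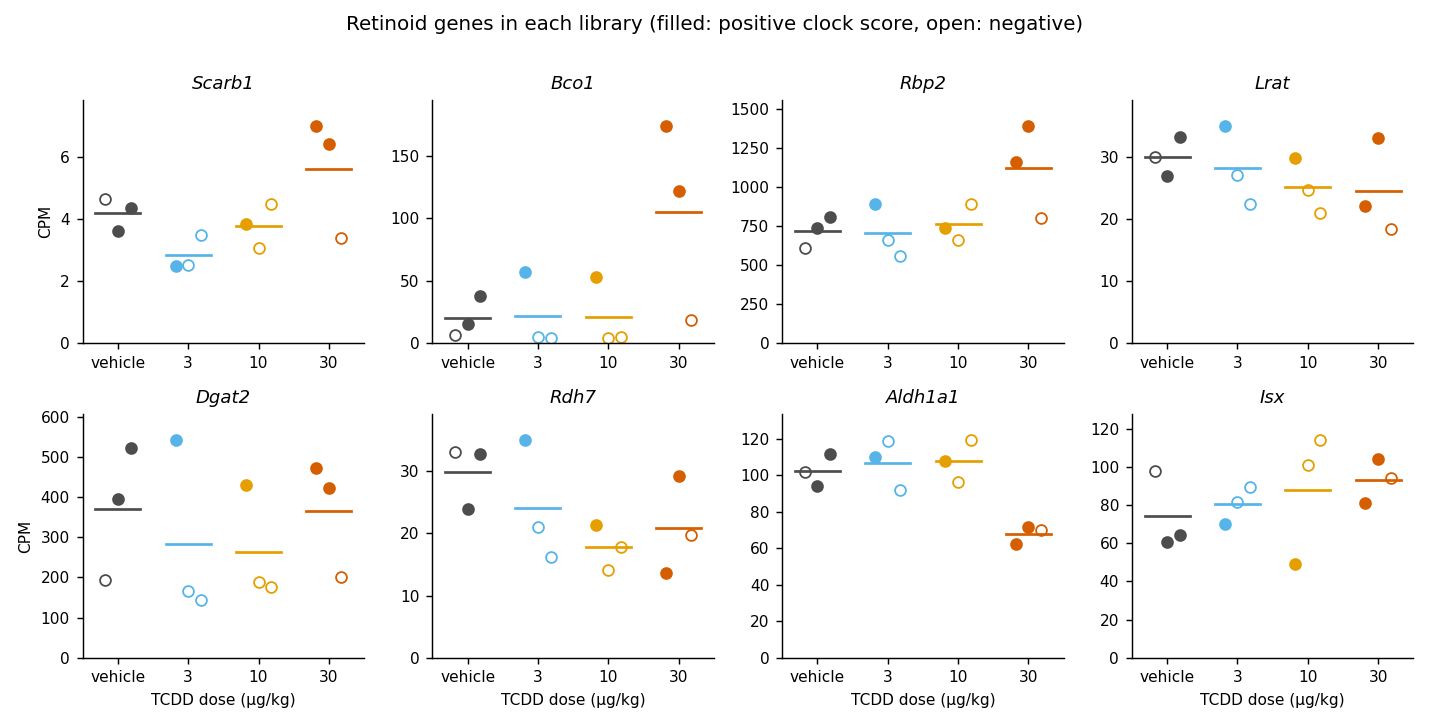
CPM of each gene in each library (linear axis from 0), by dose, with the group mean as a line, filled points for libraries with a positive clock score and open points for those with a negative one. All 3 Aldh1a1 points at 30 µg/kg lie below 72 CPM and below every other library, and for Bco1 and Dgat2 the filled points lie above the open ones in each group.

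Aldh1a1 (ENSMUSG00000053279, chr19:20492715-20643465, plus strand of GRCm38), which oxidises retinal to retinoic acid, fell at the highest dose. It was at 102, 94.3 and 112 CPM in the 3 vehicle libraries, at 110, 119 and 91.9 at 3 µg/kg, and at 108, 96.4 and 119 at 10 µg/kg. At 30 µg/kg the libraries had 62.6, 71.8 and 70.1 CPM. All 3 libraries of the highest dose were therefore below the other 9, a pattern seen in 4.87% of all genes tested, and the lower doses overlapped with vehicle. The vehicle mean was 103 CPM ± 8.7 (SD, n = 3), and the mean of the highest dose was 68.2 ± 4.89. Its log2 change was -0.59 (SE 0.12) with an adjusted p of 0.00961 by edgeR, against 0.06 (SE 0.12) and 0.07 (SE 0.12) at 3 and 10 µg/kg. The adjusted p was under 0.05 in all 18 other settings, from 0.000176 to 0.0464.

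The change of Aldh1a1 lay just past the fold limit, at 1.51-fold, and dropped below it, with log2 changes of -0.58, -0.52 and -0.53, when the trends with gene length and GC content were removed and without vehicle replicate 3 or 30 µg/kg replicate 1. It also did so, at -0.58, when the 3 µg/kg group was left out of the fit. Without 30 µg/kg replicate 1 the adjusted p of the test for any difference was 0.0656. Aldh1a1 shared 3.06% of its 50-base stretches with its neighbour Aldh1a7, whose vehicle mean was 17.7 CPM ± 2.95 (SD, n = 3) and whose mean at the highest dose was 17.8 ± 2.29, and it has antisense neighbours that cannot be told apart where strand was not counted. In bulk tissue, fewer cells of a type and less RNA per cell cannot be told apart.

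Markers of some other cell types rose at the same dose, where 3.08% of all genes were called higher. Of 9 Paneth cell markers 8 were called higher at 30 µg/kg, and their sum was between 2316 and 3253 CPM, against 744 to 1132 in vehicle. Goblet cell markers were called higher for 5 of 9, with sums of 16500 to 17945 CPM against 12811 to 16758. Enteroendocrine markers were called higher for 5 of 9, with sums of 239 to 279 CPM against 162 to 184. T cell markers were called higher for 2 of 9. By edgeR 0 markers were called in the tuft, stem and dividing, macrophage and dendritic, smooth muscle and fibroblast lists. B and plasma cell markers had a median log2 change of -1.50, with 0 of 8 called by edgeR and 3 by DESeq2. Of 12 enterocyte markers 0 were called by edgeR, limma-voom or DESeq2, 1 had an adjusted p under 0.05 with a change under 1.5-fold, and their sum was between 41625 and 54466 CPM at 30 µg/kg and between 42087 and 52369 in vehicle. The part of these markers and of the shares of unassigned reads in the value of Aldh1a1 was not tested.

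**Figure D3:**
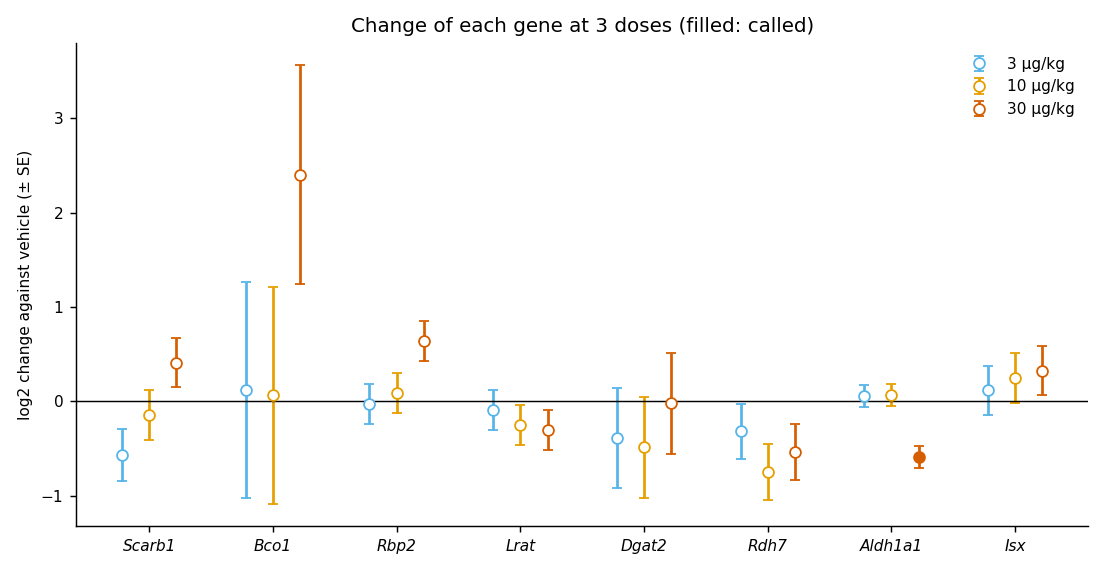
Log2 change against vehicle (points, with bars of ± 1 SE from the edgeR fit) of the 8 genes at 3, 10 and 30 µg/kg, filled where the gene was called. Aldh1a1 at 30 µg/kg, at -0.59, is the only filled point, and Bco1 has the largest change, 2.40, with an SE of 1.16.

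Scarb1 (ENSMUSG00000037936, chr5:125277087-125341094, minus strand of GRCm38), the scavenger receptor that takes up carotenoids and other lipids at the brush border, was scarce in every library, with 33 to 137 counts. It had 4.63, 3.61 and 4.36 CPM in vehicle and 2.49, 2.51 and 3.46 at 3 µg/kg, then 3.82, 3.05 and 4.47 at 10 µg/kg, with 7.00, 6.40 and 3.39 at the highest dose. The 3 µg/kg libraries were all below vehicle, as in 6.84% of all genes tested, while replicates 1 and 2 of 30 µg/kg were the highest of the 12 and replicate 3 lay within the range of the lower doses. At 30 µg/kg, replicates 1 and 2 had a positive clock score and replicate 3 a negative one. The log2 change of Scarb1 was -0.57 (edgeR BH-adjusted p 0.464, SE 0.27) at the lowest dose and 0.41 (edgeR BH-adjusted p 0.396, SE 0.26) at 30 µg/kg. Without 30 µg/kg replicate 3 the test for any difference had an adjusted p of 0.0424, against 0.147 with it.

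Bco1 (ENSMUSG00000031845, chr8:117095854-117133720, plus strand of GRCm38), the oxygenase that cleaves beta-carotene to retinal, had the widest range of the members, 43.7-fold over the 12 libraries. It was at 6.54, 15.3 and 37.8 CPM in vehicle, at 57.4, 4.67 and 3.99 at 3 µg/kg, and at 53.2, 4.14 and 5.27 at 10 µg/kg. At 30 µg/kg the values were 174, 122 and 18.8 CPM. Replicates 1 and 2 of 30 µg/kg were the highest of all libraries, and the third overlapped with vehicle. The highest dose gave a log2 change of 2.40 (SE 1.16) and an edgeR adjusted p of 0.253, and those at 3 and 10 µg/kg, 0.12 (SE 1.15) and 0.06 (SE 1.15), turned negative in several other settings.

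Within groups, Bco1 was separated by the sign of the clock score. Its libraries with a positive score had between 15.3 and 174 CPM and those with a negative score between 3.99 and 18.8, and in each of the 4 groups the positive ones were higher, as in 7.63% of all genes tested. Among the libraries with a positive score, the highest dose had 174 and 122 CPM and vehicle 15.3 and 37.8. Among those with a negative score, 30 µg/kg replicate 3 had 18.8 CPM at a score of -0.48 and vehicle replicate 1 had 6.54 CPM at -1.92, a pair of single libraries in which score and dose cannot be told apart. When the fit included the clock score, Bco1 changed at 30 µg/kg by 2.08 on the log2 scale with an edgeR adjusted p of 0.00818, while over its 18 other settings the adjusted p ranged from 0.00818 to 0.493 and passed the threshold only with this covariate.

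Rbp2 (ENSMUSG00000032454, chr9:98486115-98509781, plus strand of GRCm38), which binds retinol and retinal in the enterocyte, was the most abundant member and was higher in part of the libraries of the highest dose. Vehicle libraries had 612, 739 and 807 CPM, those of 3 µg/kg had 895, 664 and 560, and those of 10 µg/kg had 737, 659 and 895. At 30 µg/kg the values were 1165, 1395 and 804 CPM. Replicates 1 and 2 of 30 µg/kg were above all others, and replicate 3 was just below the highest vehicle library. On the log2 scale the change was 0.64 (SE 0.21) with an edgeR adjusted p of 0.101, so Rbp2 was not called. It passed with DESeq2 (adjusted p 0.0446), without the filter on low counts (0.0221), with the clock score as a covariate (0.035) and without 30 µg/kg replicate 3 (0.0432), where the change was 0.83.

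Lrat (ENSMUSG00000028003, chr3:82892579-82903973, minus strand of GRCm38), the acyltransferase that makes retinyl esters, varied little. Its libraries had 30.1, 26.9 and 33.3 CPM in vehicle, 35.1, 27.2 and 22.5 at 3 µg/kg, 30.0, 24.7 and 21.0 at 10 µg/kg, with 22.1, 33.1 and 18.4 at the highest dose. All dose groups overlapped with vehicle, and the log2 change at 30 µg/kg was -0.30 (edgeR BH-adjusted p 0.443, SE 0.21). Dgat2 (ENSMUSG00000030747, chr7:99153658-99182719, minus strand of GRCm38), which completes triglyceride synthesis and can also esterify retinol, split by library and not by dose. It had 193, 396 and 522 CPM in vehicle, 541, 165 and 144 at 3 µg/kg, 429, 189 and 176 at 10 µg/kg, with 472, 422 and 202 at the highest dose. Libraries with a positive clock score had between 396 and 541 CPM and those with a negative score between 144 and 202, with no overlap over the 12 libraries. In each of the 4 groups the positive ones were higher, as in 7.63% of all genes tested. The share of genes without overlap over all libraries was not counted. The log2 changes of Dgat2 were -0.39 (SE 0.53), -0.49 (SE 0.53) and -0.020 (SE 0.53), and 0 settings gave an adjusted p under 0.05.

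**Figure D4:**
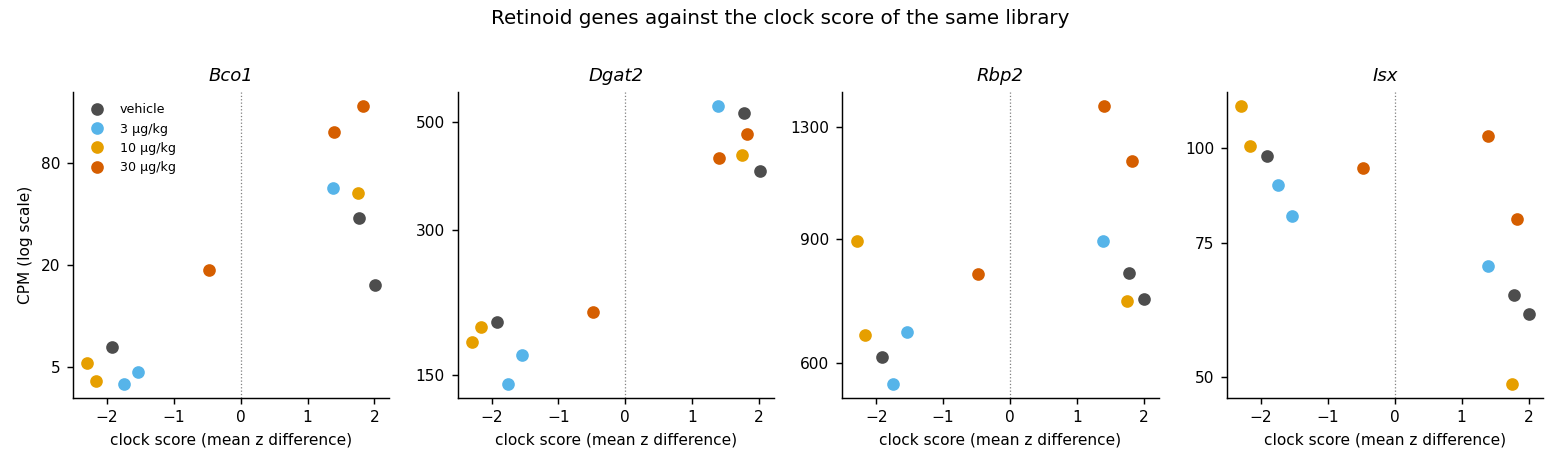
CPM (log axis, own range per panel) of Bco1, Dgat2, Rbp2 and Isx against the clock score of the same library, coloured by dose, with a dotted line at a score of 0. Dgat2 libraries with a positive score lie between 396 and 541 CPM and the others between 144 and 202, and the 2 Bco1 libraries of 30 µg/kg with a positive score are the highest.

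Rdh7 (ENSMUSG00000040134, chr10:127884028-127888817, minus strand of GRCm38), a short-chain dehydrogenase of the retinol dehydrogenase family, was at 33.1, 23.8 and 32.7 CPM in vehicle and at 34.9, 21.0 and 16.3 at 3 µg/kg. It had 21.4, 14.1 and 17.9 CPM at 10 µg/kg, with 13.6, 29.1 and 19.7 at the highest dose. Only the 10 µg/kg libraries did not overlap with vehicle, a pattern that 11% of all genes showed in the same direction. The log2 change was -0.75 (SE 0.30) at 10 µg/kg and -0.53 (SE 0.30) at 30 µg/kg, with edgeR adjusted p values of 0.254 and 0.318. Rdh7 shared 12.9% of its 50-base stretches with other genes, among them Rdh18-ps and Rdh1, so part of its reads could have been set aside or counted elsewhere.

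Isx (ENSMUSG00000031621, chr8:74873173-74893506, plus strand of GRCm38), the homeobox factor that represses Scarb1 and Bco1, was at 97.8, 60.5 and 64.0 CPM in vehicle, at 70.0, 81.5 and 89.4 at 3 µg/kg, at 49.0, 101 and 114 at 10 µg/kg, with 80.8, 104 and 94.1 at the highest dose. Every dose overlapped with vehicle, and the log2 change at 30 µg/kg was 0.33 (edgeR BH-adjusted p 0.506, SE 0.26). Isx was lower in libraries with a positive clock score than in those with a negative one in 3 of the 4 groups, and mixed at 30 µg/kg. Over the 12 libraries Isx was between 49.0 and 104 CPM with a positive score and between 81.5 and 114 with a negative one. Rbp2 and Lrat were higher with a positive score in 3 groups, and Aldh1a1 was mixed in all 4. With a positive score Scarb1 was lower in vehicle and at 3 µg/kg, mixed at 10 µg/kg and higher at 30 µg/kg. Rdh7 was lower in vehicle, higher at 3 and 10 µg/kg and mixed at 30 µg/kg. The share of all genes split in 3 groups was not counted, and a single library formed the smaller side in every group.

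The genes most like a member were sought among 11195 tested genes with a mean count of at least 50, by the root mean square difference of centred log2 CPM over the 12 libraries. They are given for the 3 members with the widest log2 range. Bco1, with an SD of 1.96, was most like Per2 (0.84), a clock gene that is also part of the clock score, Sult6b2 (0.93) and Foxq1 (1.05). Dgat2, with an SD of 0.74, was most like Cipc (0.15), an inhibitor of the clock protein CLOCK, Usp2 (0.15) and Plekhh1 (0.16). Scarb1, with an SD of 0.45, was most like Hsf1 (0.21), Proser2 (0.21) and Eif4ebp1 (0.23). The points share library and depth, and no test was made.

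Of the other genes of the pathway, uptake and luminal hydrolysis came first. Among 6 tested genes of uptake and carotenoid cleavage, 2 rose at 30 µg/kg and 0 fell, beside 3.08% and 0.891% of all genes. The median log2 change of these 6 genes was -0.16. Cd36, a fatty acid transporter of the scavenger receptor family, had 109, 93.7 and 60.2 CPM in vehicle and 132, 172 and 184 at 30 µg/kg. Its log2 change was 0.89 (edgeR BH-adjusted p 0.0343, SE 0.22), and the call was lost without vehicle replicate 2 or 3 or without 30 µg/kg replicate 2 or 3, with adjusted p values between 0.0824 and 0.111. Pnliprp2, a lipase that can hydrolyse retinyl esters, had 17.3, 27.5 and 27.2 CPM in vehicle and 66.7, 81.4 and 62.3 at 30 µg/kg. Its 30 µg/kg libraries did not overlap with any other group, a pattern whose share over all genes was not counted. Pnliprp2 rose by 1.54 (edgeR BH-adjusted p 0.00267, SE 0.25) on the log2 scale, and all 18 other settings kept its adjusted p under 0.05. Pancreatic acinar markers, of which 4 of 11 were tested, summed to between 2.71 and 3.50 CPM at 30 µg/kg and between 6.78 and 8.93 in vehicle. By edgeR 3 of these 4 were called lower at 30 µg/kg, beside 0.891% of all genes, and 3 at 3 µg/kg. Their median log2 change at 30 µg/kg was -3.13, and Cela2a, Ctrb1 and Pnlip had 0 CPM in some libraries. Npc1l1, the sterol transporter, and Bco2, the oxygenase that cuts carotenoids off-centre, had log2 changes of -0.31 (edgeR BH-adjusted p 0.179, SE 0.13) and -0.12 (edgeR BH-adjusted p 0.668, SE 0.14).

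Among 5 tested retinoid binding proteins, 1 rose at 30 µg/kg and 0 fell, beside 3.08% and 0.891% of all genes. Rbp7, a retinol-binding protein related to Rbp2, had 2.03, 1.25 and 1.37 CPM in vehicle and 1.51, 3.10 and 2.94 at 3 µg/kg. It reached 4.68, 3.26 and 4.47 CPM at 10 µg/kg, with 8.38, 4.18 and 4.82 at the highest dose. All libraries of 10 and 30 µg/kg were above all of vehicle and 3 µg/kg. The share of all genes with this pattern was not counted. Rbp7 rose by 1.92 (edgeR BH-adjusted p 0.00456, SE 0.34) on the log2 scale at 30 µg/kg, from only 26 to 36 counts in vehicle, and by 1.93 (edgeR BH-adjusted p 0.00232, SE 0.30) over the dose range. The change at 10 µg/kg, 1.42 (edgeR BH-adjusted p 0.089, SE 0.34), was not called by edgeR. At this dose DESeq2 called 1 of the 5 tested binding proteins and limma-voom 0.

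Esterification and chylomicron export gave 0 called genes of 9 at 30 µg/kg by edgeR, DESeq2 and limma-voom, with 2 at an unadjusted p under 0.05 and a median log2 change of -0.18. Mttp, which loads lipid onto apolipoprotein B, was at -0.17 on the log2 scale (edgeR BH-adjusted p 0.419, SE 0.11) and Dgat1, which can also esterify retinol, -0.18 (edgeR BH-adjusted p 0.389, SE 0.11).

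Of 19 tested retinol dehydrogenases and retinal reductases, 1 fell at 30 µg/kg and 0 rose, beside 0.891% and 3.08% of all genes. Rdh16 had 17.6, 11.7 and 10.1 CPM in vehicle, 12.0, 12.7 and 16.0 at 3 µg/kg and 6.98, 13.1 and 9.43 at 10 µg/kg. The 30 µg/kg libraries, at 4.70, 6.66 and 6.13 CPM, were below all others, as in 4.87% of all genes tested. Rdh16 fell by 1.18 (edgeR BH-adjusted p 0.0179, SE 0.26) on the log2 scale, and the call was lost without vehicle replicate 1 or without 30 µg/kg replicate 1 or 3, with adjusted p values between 0.0536 and 0.0832. Akr1b7, an aldo-keto reductase, went from a vehicle mean of 95.0 CPM ± 22.9 (SD, n = 3) to 134 ± 25.8 at the highest dose (log2 change 0.49, edgeR BH-adjusted p 0.276, SE 0.25).

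**Figure D5:**
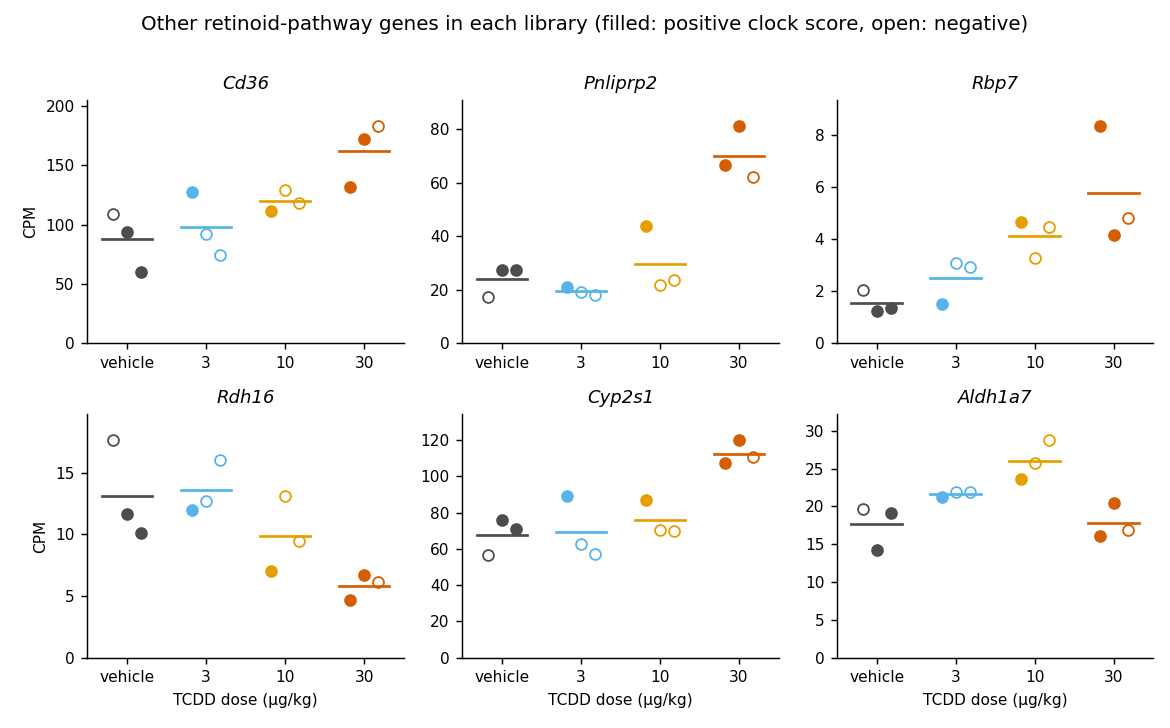
CPM (linear axis from 0) of the 6 other genes of the retinoid lists called in any test, in each library by dose, with the group mean as a line and filled points for a positive clock score. Pnliprp2, Cyp2s1 and Cd36 are highest at 30 µg/kg, Rdh16 is lowest there, and Aldh1a7 is highest at 10 µg/kg.

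The list of retinal dehydrogenases and retinoic acid hydroxylases also held Aldh1a7, a paralog. Of its 5 tested genes, 1 rose at 30 µg/kg and 2 were called for any difference, beside 3.08% and 6.78% of all genes. Cyp2s1, a cytochrome P450 and known AhR target that can hydroxylate retinoic acid, had 56.6, 75.8 and 71.1 CPM in vehicle and 107, 120 and 111 at 30 µg/kg. It rose by 0.73 (edgeR BH-adjusted p 0.0193, SE 0.16), and lost the call without vehicle replicate 1 or without 30 µg/kg replicate 2 or 3, with adjusted p values between 0.0506 and 0.061. Aldh1a7, the paralog of Aldh1a1, had 19.6, 14.3 and 19.1 CPM in vehicle, 21.2, 21.9 and 22.0 at 3 µg/kg, 23.6, 25.8 and 28.7 at 10 µg/kg, with 16.1, 20.4 and 16.9 at the highest dose. Its test for any difference passed (edgeR adjusted p 0.0456), while the log2 change was 0.56 (edgeR BH-adjusted p 0.0884, SE 0.13) at 10 µg/kg and 0.011 (edgeR BH-adjusted p 0.977, SE 0.14) at 30 µg/kg.

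Receptors, targets and regulators of the pathway gave no call at any dose. Of 4 tested retinoid receptors, 9 retinoic acid responsive genes and 11 regulators of absorptive genes, 0 were called by edgeR, DESeq2 or limma-voom, with 0, 1 and 1 at an unadjusted p under 0.05 at 30 µg/kg and median log2 changes of 0.058, -0.012 and 0.12. For any difference among the 4 groups, DESeq2 called 1 gene of each of these lists, and edgeR and limma-voom called 0. The receptors Rxra and Rara were at 177 and 53.2 CPM in vehicle and at 181 and 50.1 at 30 µg/kg. Hnf4a, the enterocyte nuclear receptor, was at 880 CPM in vehicle and 831 at 30 µg/kg, and Cdx1, a retinoic acid responsive homeobox gene, at 60.9 and 72.7.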

How the data were processed

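RNA sequencing was done on total RNA of proximal ileal epithelial scrapings, with 12 libraries in 4 groups of 3. The authors deposited a file for each library, which gives the raw read count of every Ensembl gene without normalisation. The submitters' processing notes name FastQC 0.11.3, Trimmomatic 0.33, TopHat2 2.1.0, SAMtools 1.2.0, HTSeq 0.6.1 and the build GRCm38, while the annotation release and strand setting are not given in the sources used here. Identifiers of 45229 of 46078 genes matched GENCODE M21, and the unmatched genes held 0.749% of counts. Reads in no gene, in several genes or with several alignments entered neither library sizes nor tests. They made up 25.0% to 30.1%, 0.414% to 0.728% and 31.4% to 38.8% of the total counted, which lists 0 unaligned reads. Whether a read with several alignments was counted once is not given, so these are not shares of all reads sequenced.

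The tests were run in edgeR 4.0.16 under R 4.3.3 (filterByExpr, TMM, 1 quasi-likelihood fit of 4 groups, BH adjustment), with limma 3.58.1 and DESeq2 1.42.0 as alternatives. SEs were derived from the F statistic. Log2 CPM used a prior count of 2. The model was tested on simulated data. The labels give no replicate numbers, so numbers follow accession order, and the labels do not tie libraries to single mice, so p-values measure the spread between these libraries, which may in part be technical. A sequencing date or pool is not in the labels, so such a batch cannot be told apart from dose. The 3 read indexes were balanced over doses. All members were named, as were pathway genes called in any test, up to 4 abundant genes per list, and genes named for likeness. Members and lists were chosen with earlier results of these data known. A floor of 3 counts equals 0.135 to 0.257 CPM, which covers counting error only.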

Additional observations from a re-analysis of the deposited data

How the results depend on the processing

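The other settings were other scaling factors, other filters on low counts, DESeq2, limma-voom, the compared groups alone, the read index or clock score as a covariate, removal of length and GC trends, and leaving out each replicate. Leaving out the 3 µg/kg group was chosen after seeing the data. No paired analysis was possible because the labels carry no replicate numbers or shared animals, and the fit with the read index, which is balanced over doses, blocks libraries by index only.

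The member count at 30 µg/kg, 1, became 2 without the filter and with DESeq2, 3 with the clock score, and 0 with length and GC trends removed or without the 3 µg/kg group. For any difference it became 2 without the filter, with DESeq2 and with the clock score, and for the trend 2 with the clock score. With 1 replicate left out the counts ranged from 0 to 2 at 30 µg/kg and for any difference, and were 0 at 3 and 10 µg/kg and for the trend. Over all genes, calls at 3 µg/kg were 6 with the compared groups alone, 18 with the read index, 23 with 10 counts in every library, 71 without the filter, 84 with DESeq2 and 162 without 3 µg/kg replicate 1, against 36. At 10 µg/kg they were between 45 and 262, against 97. For any difference they were between 562 and 2143, against 1073, and for the trend between 297 and 722, against 520.

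Of the values with all replicates, 576 kept direction and side of the threshold and 13 changed direction, none of them called. Another 9 were called only in the other setting and 2 only in the main fit. Values of the test for any difference have no direction and could change only their side of the threshold. With limma-voom Bco1 was -0.77 at 3 and -0.62 at 10 µg/kg, and Dgat2 0.0095 at 30 µg/kg and 0.023 for the trend. With the read index Bco1 was -1.25 at 3 µg/kg and -1.26 at 10 µg/kg. With the clock score, Rbp2 was 0.077, Lrat 0.00051 and Isx -0.081 at 3 µg/kg, and Isx -0.067 and Dgat2 0.11 at 10 µg/kg. Aldh1a7 at 30 µg/kg was -0.0081 with upper-quartile factors and -0.046 with length and GC trends removed. With 1 replicate left out, Bco1 ranged from -2.20 to 0.95 at 3 and from -2.07 to 0.93 at 10 µg/kg, Rbp2 from -0.24 to 0.12 and from -0.041 to 0.19, and Aldh1a1 from -0.023 to 0.16 and from -0.0061 to 0.15. At 3 µg/kg Isx ranged from -0.028 to 0.36 and Lrat from -0.28 to 0.049. Dgat2 ranged from -0.32 to 0.32 at 30 µg/kg and from -0.30 to 0.31 for the trend, and Aldh1a7 from -0.12 to 0.10 at 30 µg/kg. The causes were not tested. With 3 libraries a group, changes of members as variable as Bco1 (SE 1.16) could not be placed closely.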

Other observations

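Plb1, a brush border phospholipase that also hydrolyses retinyl esters, varied widely and was not called at any dose by edgeR. DESeq2 called 1 of the 6 tested genes of its list, uptake and carotenoid cleavage, at 10 µg/kg, and limma-voom called 0. Plb1 is given here by library. Plb1 had 133, 201 and 13.3 CPM in vehicle, 55.5, 38.3 and 76.9 at 3 µg/kg, 15.2, 25.5 and 9.003 at 10 µg/kg, with 50.4, 69.1 and 59.1 at the highest dose. Vehicle replicate 3 was far below the other vehicle libraries and close to those of 10 µg/kg. On the log2 scale Plb1 was at -2.81 (edgeR BH-adjusted p 0.096, SE 0.70) at 10 µg/kg and -0.96 (edgeR BH-adjusted p 0.418, SE 0.64) at the highest dose. Without vehicle replicate 3 the change at 30 µg/kg was -1.49, with an edgeR adjusted p of 0.044.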
